A study of Saccharomyces cerevisiae with 9 samples.

Results

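Yeast cells build their fatty acids in the cytosol, and the 10 genes described here cover the steps of that route. ACC1 makes malonyl-CoA, FAS1 and FAS2 encode the subunits of the fatty acid synthase, and OLE1 encodes the only fatty acid desaturase of this yeast. MGA2 encodes a membrane-bound transcription factor that drives OLE1, while ELO1, ELO2 (also FEN1) and ELO3 (also SUR4) elongate the chains, and FAA1 and FAA4 activate free fatty acids with coenzyme A. The balance of unsaturated and saturated chains sets how fluid the membrane is, and heat and weak acids both act on that membrane. All 10 were found on the array by their systematic names, among 6256 probes. Of these probes, 500 matched no entry of the yeast gene table used here.

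RNA of Saccharomyces cerevisiae was sampled after the cells had fermented xylose (50 g/L) for 3 h in the heat (38°C), in medium acidified with acetic acid (20 mM) together with formic acid (15 mM). The hybrid strain Hyb-8, the acid-tolerant parental strain Sun224T-K and the thermotolerant parental strain Sun049T-Z were each hybridised to 3 arrays of 1 colour, 9 in all. The parental strains are diploids from industrial backgrounds, made to use xylose by a plasmid with XYL1 and XYL2 of Scheffersomyces stipitis, with XKS1 and with resistance to clonNAT, and all 3 strains were grown with clonNAT before the fermentation. One HO copy was replaced by KanMX in Sun224T-K and by Sh Ble in Sun049T-Z. Hyb-8 is 1 isolate, obtained by mating spores of UV-treated cells of both parental strains. Whether replicate arrays stand for separate cultures is not given in the sources used here, and p-values then measure only the spread between these arrays, which may be technical.

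Each value below is a level, the log2 intensity of a probe relative to the 75th percentile of its own array, averaged over the 7 spots of the probe. Levels of one gene are compared between strains, because probes differ in brightness. Strains were compared in one limma fit over the 9 arrays, and each adjusted p is limma's after Benjamini-Hochberg adjustment over the 5947 probes tested. A gene passed at an adjusted p under 0.05, whatever the size of its change, and a 2-fold change is asked for only where it is named. Replicate values are given in the order of the replicate numbers.

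Spots well above background made up 90.2% to 96.5% of each array. Sun049T-Z replicate 1 stood apart in the scatter of its spots, as their SD within a probe had a median of 0.324 log2 units there and of at most 0.067 on any other array. Over the members, the brightest spot of a probe was 1.76 to 665 times as bright as the dimmest on that array, and 1.02 to 1.34 times on the other 8. The labels describe Hyb-8 and Sun224T-K as PHO13 deletion strains, but the PHO13 level was 2.06 higher in Hyb-8 and 2.23 higher in Sun224T-K than in Sun049T-Z. The strain names and the directions below are therefore those of arrays labelled with each name. Of 15 mating and haploid-specific genes, which a diploid should not express, 12 were well above background on every array of Hyb-8, 12 on every array of Sun224T-K and 11 on every array of Sun049T-Z. Of all 6256 probes, 5687 were so on all 9 arrays, and these counts are therefore no test of ploidy. In Hyb-8 the mean intensity was 33 for FAR1 and 80 for STE2, but 1220 for STE6. The 9 arrays came from 4 slides, and all 3 strains were present on slides 2 and 4.

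All 10 genes were well above background on all 9 arrays and were tested. The strongest differences lay between Hyb-8 and Sun049T-Z and between the parental strains, with MGA2 and FAS2 lowest in Sun049T-Z. OLE1 alone passed the test for Hyb-8 against Sun224T-K, where 5.48% of all probes tested passed. FAS1 passed as higher in Hyb-8 against each parental strain in 2 other readings of its spots and arrays that are given below. Against Sun224T-K these were the only 2 of 24 other settings in which it passed. MGA2, ELO1 and FAA4 passed as higher in Hyb-8 against each parental strain when arrays were weighted by quality. That fit was added after the data were seen, and in it 1922 of the 5947 probes passed against Sun224T-K in place of 326.

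**Figure D1:**
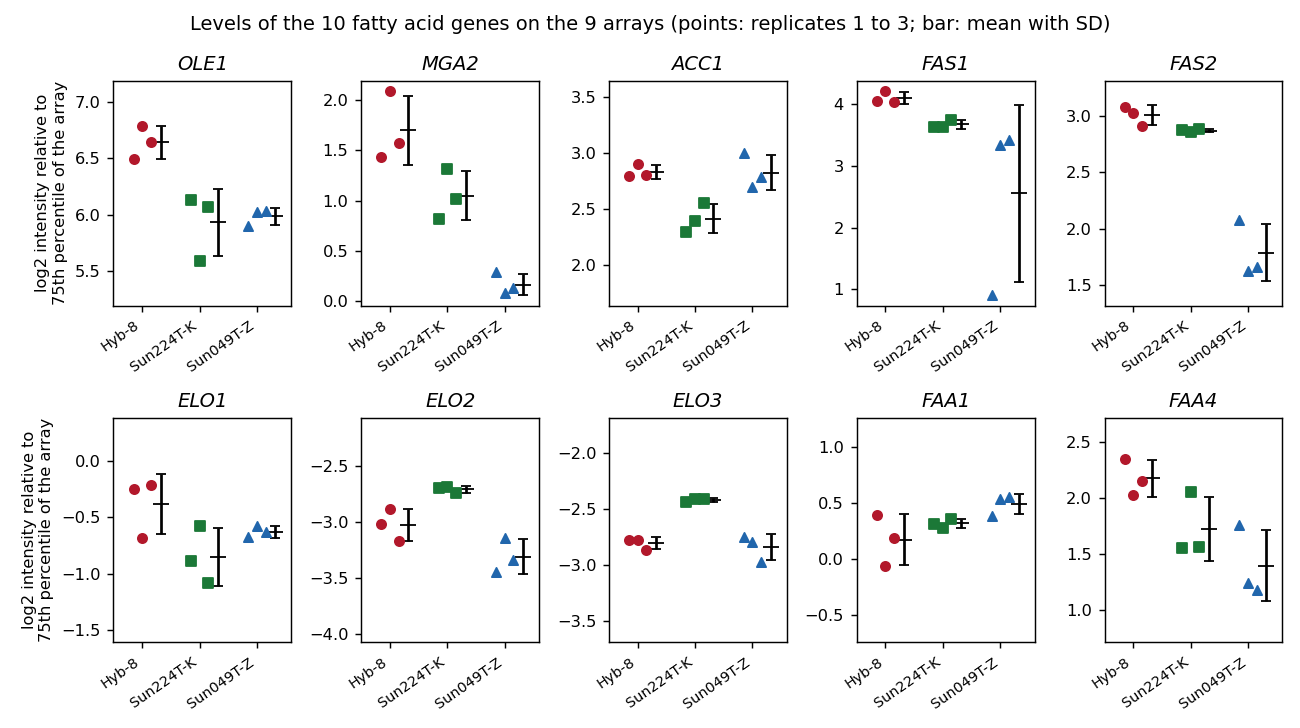
Level of each gene (y axis, log2 intensity relative to the 75th percentile of the array) on the 3 arrays of Hyb-8, Sun224T-K and Sun049T-Z (x axis), with points for replicates 1 to 3 from left to right and bars for the mean and SD. OLE1 and FAS1 lay higher on every Hyb-8 array than on any parental array, MGA2 formed 3 steps, and FAS1 of Sun049T-Z replicate 1 lay at 0.90, far below 3.34 and 3.42 on the other arrays of that strain.

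OLE1 (YGL055W, chromosome VII) puts the double bond into palmitic and stearic acid. Its levels were 6.50, 6.79 and 6.64 in Hyb-8, 6.13, 5.59 and 6.07 in Sun224T-K, and 5.90, 6.02 and 6.03 in Sun049T-Z. Every Hyb-8 array lay above every parental array, and the parental arrays overlapped. OLE1 was 1.64-fold higher in Hyb-8 relative to Sun224T-K (log2 fold change 0.71, SE 0.15, adjusted p = 0.0308) and 1.58-fold higher than in Sun049T-Z (0.66, SE 0.15, adjusted p = 0.00488). Between Sun224T-K and Sun049T-Z the difference was -0.05 (95% CI -0.40 to 0.29, adjusted p = 0.779). Within slides 2 and 4, where each strain is compared on the same slide, OLE1 was 0.64 and 0.57 higher in Hyb-8 relative to Sun224T-K, and 0.48 and 0.61 higher than in Sun049T-Z. These are differences between single arrays, except that Sun224T-K replicates 1 and 2 (6.13 and 5.59), both on slide 2, were averaged there.

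The OLE1 probe was among the 8 brightest of the 6256 probes on every array, and its rank by intensity was 4, 4 and 3 in Hyb-8, 6, 7 and 7 in Sun224T-K, and 8, 4 and 3 in Sun049T-Z. Before the shift to the 75th percentile, its mean intensity was 214900 in Hyb-8, 216700 in Sun224T-K and 145200 in Sun049T-Z. The mean rise over Sun224T-K was thus absent before scaling. It was 0.72 with a shift to the median of each array (adjusted p = 0.0334). With arrays scaled to ACT1 it was 0.88 (adjusted p = 0.0195). The 75th percentile was 1634, 2188 and 2548 on the Hyb-8 arrays and 2488, 4830 and 3620 on the Sun224T-K arrays. Whether the signal of so bright a probe was compressed was not tested. Leaving out spots marked as saturated left the difference over Sun224T-K at 0.71 (adjusted p = 0.0308). On Sun049T-Z replicate 1, the OLE1 spots scaled up from a scan at low gain read 65387 to 125240. The remaining spots of that array, not scaled up, read 32795 and 33100. Quantile normalization, which gives every array the same set of values by rank, lowered the OLE1 difference to 0.27 against Sun224T-K (adjusted p = 0.387) and to 0.10 against Sun049T-Z (adjusted p = 0.637). Of 24 other settings, 2 of them added after the data were seen, the test passed in 13 against Sun224T-K and in 22 against Sun049T-Z, where it was also lost with slide as a fixed term (0.55, adjusted p = 0.0549). Against Sun224T-K it was lost without Hyb-8 replicate 1 (adjusted p = 0.0553), 2 (0.0954) or 3 (0.111), without Sun224T-K replicate 3 (0.0733), and without Sun049T-Z replicate 2 (0.0557) or 3 (0.0510). In those fits the difference ran between 0.64 and 0.79, and over all 9 fits with an array left out between 0.54 and 0.81. The lowest difference came without Sun224T-K replicate 2 and passed (adjusted p = 0.0467). That array had the highest 75th percentile of the 9 (4830). The call over Sun224T-K was also lost with a normexp background (adjusted p = 0.0606) or this pair of strains fitted alone (0.0555). So it was with the replicate number as a block (adjusted p = 0.0762) or slide as a fixed term (0.62, adjusted p = 0.122).

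MGA2 (YIR033W, chromosome IX), whose protein is cut free from the endoplasmic reticulum when unsaturated chains are scarce, had levels of 1.44, 2.09 and 1.58 in Hyb-8, 0.82, 1.31 and 1.02 in Sun224T-K, and 0.29, 0.08 and 0.13 in Sun049T-Z. No array of one strain overlapped with those of another, so that the gene formed 3 steps from Hyb-8 down to Sun049T-Z. It was 2.90-fold higher in Hyb-8 relative to Sun049T-Z (log2 fold change 1.54, SE 0.19, adjusted p = 0.000112) and 0.89 higher on the log2 scale in Sun224T-K than in Sun049T-Z (adjusted p = 0.00277). The step of 0.65 between Hyb-8 and Sun224T-K did not pass (95% CI 0.24 to 1.07, adjusted p = 0.0752). MGA2 passed against Sun049T-Z in all 24 other settings, for Hyb-8 and for Sun224T-K. SPT23 (YKL020C), its paralog with an overlapping role, differed by -0.05 between Hyb-8 and Sun224T-K, by -0.21 between Hyb-8 and Sun049T-Z and by -0.16 between the parental strains, and passed in none of them (adjusted p = 0.879, 0.202 and 0.309).

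Fatty acid synthase is a large complex in yeast, with FAS2 encoding the alpha subunit and FAS1 the beta subunit. FAS2 (YPL231W, chromosome XVI) had levels of 3.09, 3.03 and 2.91 in Hyb-8, 2.88, 2.86 and 2.89 in Sun224T-K, and 2.08, 1.62 and 1.66 in Sun049T-Z. The Hyb-8 and Sun224T-K arrays lay close together, and both lay above every Sun049T-Z array. FAS2 was 2.34-fold higher in Hyb-8 relative to Sun049T-Z (log2 fold change 1.22, SE 0.13, adjusted p = 5.5e-05) and 2.13-fold higher in Sun224T-K than in Sun049T-Z (1.09, SE 0.13, adjusted p = 0.000107). Between Hyb-8 and Sun224T-K it differed by 0.13 (95% CI -0.16 to 0.43, adjusted p = 0.590). Both FAS2 calls against Sun049T-Z held in all 24 other settings.

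FAS1 (YKL182W, chromosome XI) had levels of 4.06, 4.21 and 4.04 in Hyb-8, 3.63, 3.64 and 3.75 in Sun224T-K, and 0.90, 3.34 and 3.42 in Sun049T-Z. The 3 strains did not overlap, but the value of Sun049T-Z replicate 1 lay far from the others of its strain. The 7 FAS1 spots of that array read 21, 102, 2173, 10607, 10872, 13911 and 13955 in background-subtracted intensity, and the scanner software marked none of them as an outlier. The dimmest read 21 and was not well above background, while 4 spots lay between 10607 and 13955, as the plot of the spots shows. With the median of the spots in place of their mean, a choice made after the data were seen, the level of that array was 3.34, next to 3.33 and 3.42 on the other Sun049T-Z arrays.

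**Figure D2:**
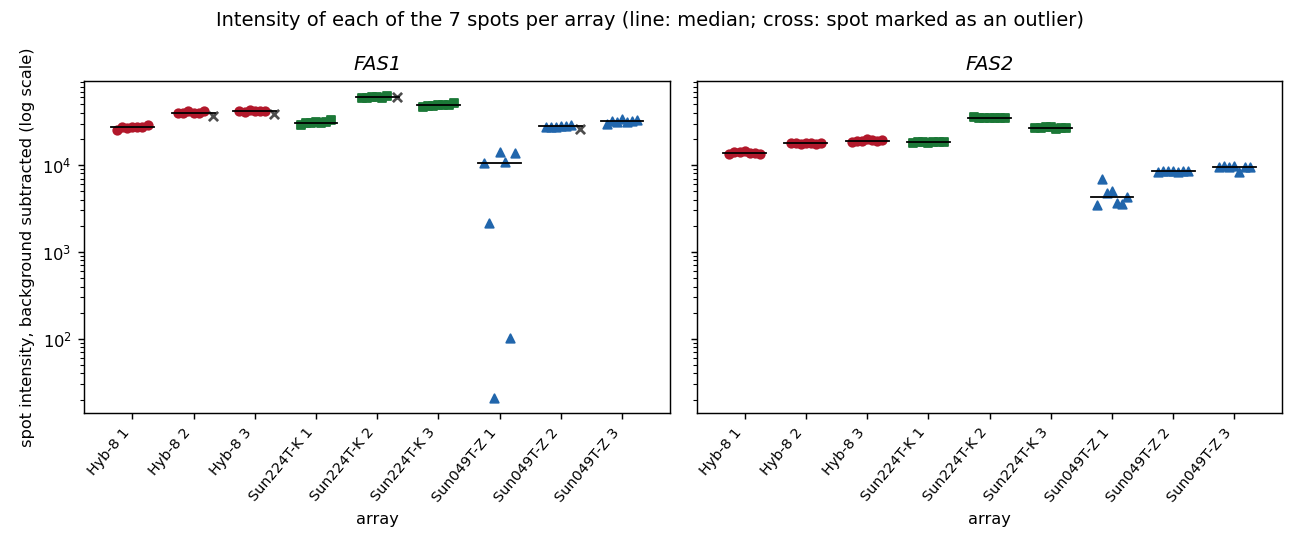
Background-subtracted intensity of the 7 spots of FAS1 and FAS2 (y axis, log scale) on each array (x axis), with a line at the median and crosses for spots marked as outliers and left out. The 3 dimmest FAS1 spots of Sun049T-Z replicate 1 read 21, 102 and 2173, below the other 4 spots of that array.

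As a result the FAS1 values of Sun049T-Z depend on how its first array is read. From the mean of the spots, FAS1 was 1.55 higher on the log2 scale in Hyb-8 than in Sun049T-Z (SE 0.55, adjusted p = 0.0369). From the median of the spots the difference was 0.74 (SE 0.09, adjusted p = 9.2e-05), and without Sun049T-Z replicate 1 it was 0.72 (adjusted p = 0.000487). Hyb-8 was thus higher in FAS1 by each reading, but by more than 2-fold only in the first. Against Sun224T-K, Hyb-8 was 0.43 higher by all 3 readings. This did not pass with the large SE of the mean (adjusted p = 0.689), and passed with the median of the spots (adjusted p = 0.0235) and without Sun049T-Z replicate 1 (adjusted p = 0.0285). It passed in no other of 24 settings. With this pair of strains fitted alone, which leaves out all Sun049T-Z arrays, the SE was 0.105 and the adjusted p 0.0622. With slide as a fixed term the SE was 0.083 and the adjusted p 0.0872. Between Sun224T-K and Sun049T-Z the difference was 1.12 from the mean (adjusted p = 0.108), 0.31 from the median (adjusted p = 0.0148) and 0.29 without that array (adjusted p = 0.0368). Leaving out Sun049T-Z replicate 3 instead gave 1.55 for this comparison (adjusted p = 0.0400). The call for Hyb-8 against Sun049T-Z was lost with ACT1 scaling (adjusted p = 0.0634), with the pair of strains fitted alone (0.0692), without Sun224T-K replicate 2 (adjusted p = 0.0505) or 3 (0.0521) and without Hyb-8 replicate 1 (0.0819), 2 (0.0954) or 3 (0.0799).

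**Figure D3:**
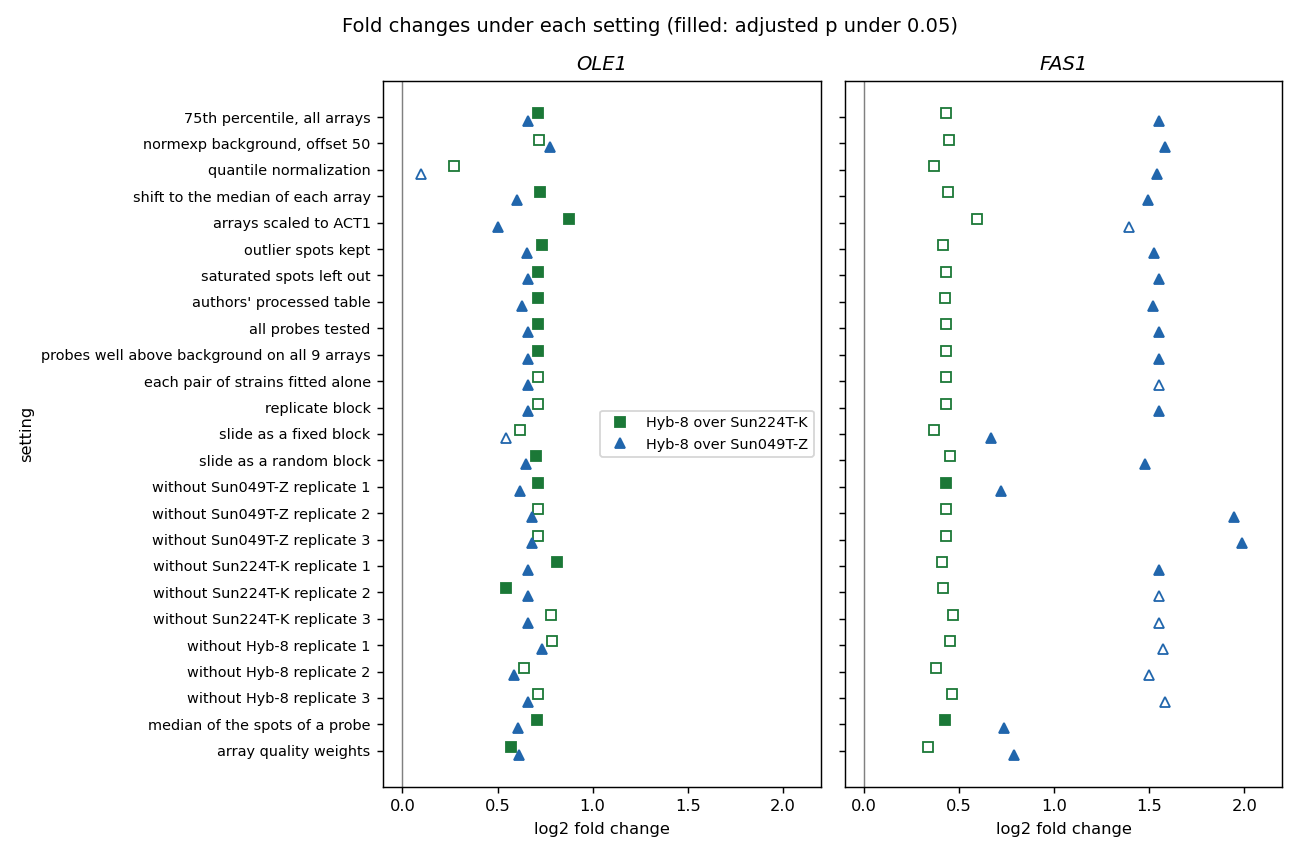
Log2 fold change of OLE1 and FAS1 (x axis) in Hyb-8 over Sun224T-K (squares) and over Sun049T-Z (triangles) for each setting (y axis), filled where the adjusted p was under 0.05. OLE1 dropped to 0.27 and 0.10 with quantile normalization, and FAS1 over Sun049T-Z lay at 0.72 or 0.74 without Sun049T-Z replicate 1 or with the median of the spots, against 1.55 with the mean.

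ACC1 (YNR016C, chromosome XIV) carries out the first committed step of synthesis. Its levels were 2.79, 2.90 and 2.80 in Hyb-8, 2.29, 2.39 and 2.55 in Sun224T-K, and 3.00, 2.69 and 2.78 in Sun049T-Z. The gene was lowest in Sun224T-K, whose arrays overlapped with neither of the other strains, whereas the Hyb-8 arrays lay within the range of the Sun049T-Z arrays. ACC1 was lower by 0.41 on the log2 scale in Sun224T-K than in Sun049T-Z (log2 fold change -0.41, adjusted p = 0.0127). Hyb-8 lay 0.42 above Sun224T-K, which did not pass (95% CI 0.16 to 0.68, adjusted p = 0.0686), although it passed without Sun049T-Z replicate 1 (adjusted p = 0.0392). Between Hyb-8 and Sun049T-Z the interval ran between -0.25 and 0.27 (adjusted p = 0.960). ACC1 and FAS2 thus differed in opposite directions between the parental strains.

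The elongases extend the chains that the synthase releases, with ELO1 acting on medium chains and ELO2 and ELO3 on the very long chains of sphingolipids. ELO2 (YCR034W, chromosome III) had levels of -3.02, -2.89 and -3.17 in Hyb-8, -2.70, -2.69 and -2.75 in Sun224T-K, and -3.45, -3.15 and -3.34 in Sun049T-Z. ELO3 (YLR372W, chromosome XII) had levels of -2.77, -2.77 and -2.87 in Hyb-8, -2.44, -2.41 and -2.41 in Sun224T-K, and -2.75, -2.80 and -2.97 in Sun049T-Z. Both genes were highest in Sun224T-K, on every array. ELO2 was 0.60 higher (adjusted p = 0.00173) and ELO3 0.42 higher (adjusted p = 0.00471) on the log2 scale in Sun224T-K than in Sun049T-Z. When arrays were scaled to ACT1 in place of the 75th percentile, these differences were 0.28 (adjusted p = 0.181) and 0.10 (adjusted p = 0.556). That scaling moves every log2 fold change of a comparison by the same amount, and the median of all probes moved with them, to -0.32. The place of both genes relative to that median is therefore fixed and is no test of them. ACT1 itself was 0.32 higher in Sun224T-K than in Sun049T-Z (adjusted p = 0.0283).

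Hyb-8 lay below Sun224T-K in both genes, by values that did not pass. The log2 fold change was -0.31 for ELO2 (95% CI -0.57 to -0.06, adjusted p = 0.149) and -0.39 for ELO3 (-0.60 to -0.17, adjusted p = 0.0523). ELO3 passed in 4 of 24 other settings, among them the fit without Sun049T-Z replicate 1 (adjusted p = 0.0357). Against Sun049T-Z, ELO2 was 0.28 higher in Hyb-8 (adjusted p = 0.0600) and passed without Sun049T-Z replicate 2 (0.37, adjusted p = 0.0391) or Hyb-8 replicate 3 (0.36, adjusted p = 0.0445). ELO3 differed by 0.03 (95% CI -0.18 to 0.25, adjusted p = 0.788). ELO1 (YJL196C, chromosome X) had levels of -0.24, -0.68 and -0.21 in Hyb-8, -0.89, -0.57 and -1.09 in Sun224T-K, and -0.68, -0.57 and -0.63 in Sun049T-Z. Its strains overlapped, it passed in no comparison, and its difference between Hyb-8 and Sun224T-K was 0.47 (95% CI 0.10 to 0.84, adjusted p = 0.134).

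FAA1 and FAA4 are the main acyl-CoA synthetases for imported long chains. FAA4 (YMR246W, chromosome XIII) had levels of 2.35, 2.02 and 2.15 in Hyb-8, 1.55, 2.05 and 1.56 in Sun224T-K, and 1.76, 1.25 and 1.19 in Sun049T-Z. Every Hyb-8 array lay above every Sun049T-Z array, while Sun224T-K overlapped with both. FAA4 was 1.71-fold higher in Hyb-8 relative to Sun049T-Z (log2 fold change 0.78, SE 0.19, adjusted p = 0.00688), and its 0.45 over Sun224T-K did not pass (95% CI 0.02 to 0.88, adjusted p = 0.202). Between the parental strains it differed by 0.33 (adjusted p = 0.171), and by 0.51 without Sun049T-Z replicate 1, which passed (adjusted p = 0.0323). FAA1 (YOR317W, chromosome XV) had levels of 0.39, -0.07 and 0.18 in Hyb-8, 0.31, 0.28 and 0.36 in Sun224T-K, and 0.39, 0.53 and 0.55 in Sun049T-Z. It passed in no comparison. The closest to the threshold was Hyb-8 against Sun049T-Z, at -0.32 (adjusted p = 0.0548), which passed in 9 of 24 other settings, among them the fits without Sun049T-Z replicate 1 (-0.37, adjusted p = 0.0447) and without Hyb-8 replicate 1 (-0.43, adjusted p = 0.0176).

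**Figure D4:**
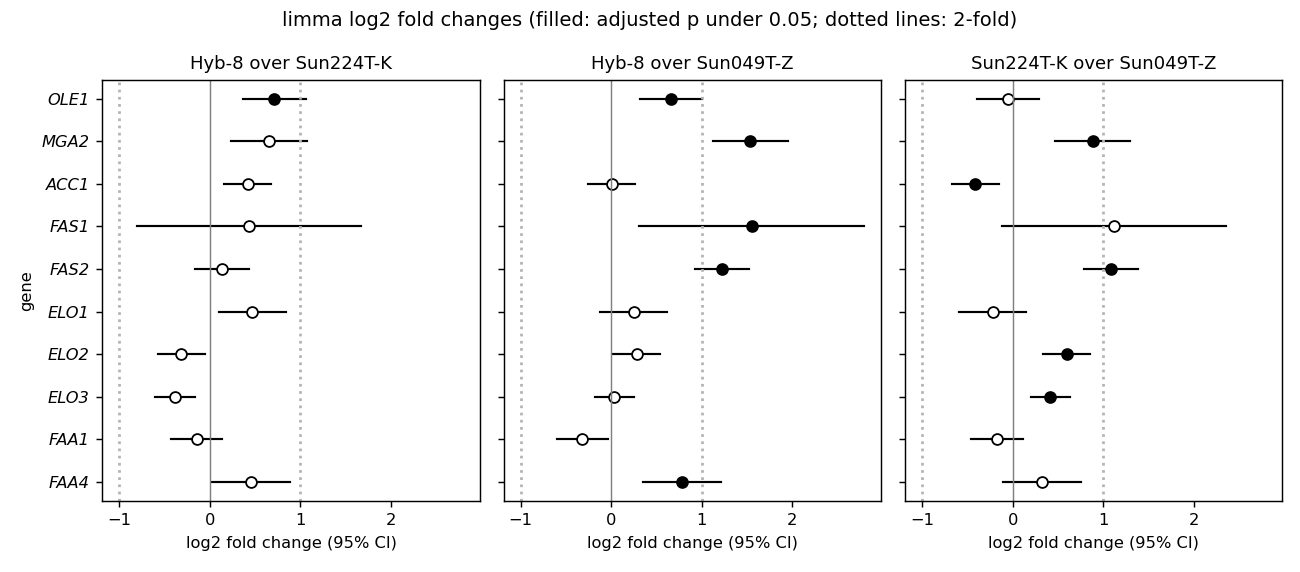
Log2 fold change with its 95% confidence interval (x axis) for each gene (y axis) in Hyb-8 over Sun224T-K, Hyb-8 over Sun049T-Z and Sun224T-K over Sun049T-Z, filled where the adjusted p was under 0.05. In Hyb-8 over Sun224T-K OLE1 is the only filled point, the wide FAS1 interval comes with the spots of 1 array, and in Sun224T-K over Sun049T-Z ACC1 is the only filled point below 0.

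Counted over the 10 genes, 1 rose and 0 fell in Hyb-8 against Sun224T-K, where 3.03% of all probes tested rose and 2.46% fell, 5.48% in all. No member reached 2-fold there, where 1.24% of all probes did, and 7 members had arrays without overlap, where 30.4% of all probes did. Against Sun049T-Z, 5 members rose (OLE1, MGA2, FAS1, FAS2 and FAA4) and 0 fell, where 28.7% of all probes rose and 27.3% fell, 56.0% in all. MGA2, FAS1 and FAS2 were past 2-fold, where 18.5% of all probes were, and without Sun049T-Z replicate 1 these were MGA2 and FAS2. The arrays of 5 members did not overlap, where those of 65.6% of all probes did not. Between Sun224T-K and Sun049T-Z, 4 members were higher (MGA2, FAS2, ELO2 and ELO3) and 1 lower (ACC1), where 29.1% of all probes were higher and 29.1% lower, 58.2% in all. FAS2 was the member past 2-fold, where 20.1% of all probes were, and 7 members had no overlap, where 66.2% of all probes had none. The count of members that passed was thus near the share of all probes in the comparisons with Sun049T-Z.

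The median log2 fold change of the 10 members was 0.42 for Hyb-8 over Sun224T-K, 0.47 for Hyb-8 over Sun049T-Z and 0.37 for Sun224T-K over Sun049T-Z. Over all probes tested it was 0.01, 0.03 and 0.00. These comparisons share arrays in pairs, so that their values are not independent of each other. Against the mid-parent value, the mean of the parental log2 levels, 4 members were higher in Hyb-8 (OLE1 by 0.69, FAS2 by 0.68 and FAA4 by 0.62 on the log2 scale, and MGA2 2.14-fold) and 0 lower, where 35.1% of all probes passed. With quantile normalization OLE1 was 0.19 above the mid-parent value and did not pass (adjusted p = 0.354). The FAA4 call was lost without Hyb-8 replicate 1 (0.53, adjusted p = 0.0812) or 3 (0.63, adjusted p = 0.0608). MGA2 alone was past 2-fold, where 5.33% of all probes were. FAS1 was 0.99 above the mid-parent value (adjusted p = 0.136), and 0.58 without Sun049T-Z replicate 1, which passed (adjusted p = 0.00115).

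Around these genes lie the pathways that feed them or use their products, given here as 9 lists with 66 genes, all tested. In Hyb-8 against Sun224T-K 2 genes rose and 2 fell (6.06% of 66, where 5.48% of all probes passed). FAA3, a minor acyl-CoA synthetase, had levels of -1.66, -1.34 and -1.74 in Hyb-8, -2.42, -3.14 and -2.26 in Sun224T-K, and -2.45, -2.60 and -2.65 in Sun049T-Z. It lay above both parental strains on every Hyb-8 array, by 1.03 over Sun224T-K (adjusted p = 0.0286) and by 0.99 over Sun049T-Z (adjusted p = 0.00358). The call over Sun224T-K was lost with normexp (adjusted p = 0.0557), the pair fitted alone (0.0502), the replicate block (0.0724) or slide as a fixed term (0.132), and without Sun049T-Z replicate 2 (0.0516) or Hyb-8 replicate 1 (0.0669), 2 (0.0954) or 3 (0.0868), and the value was 0.63 with quality weights. ACB1, which binds acyl-CoA, was 0.51 higher than in Sun224T-K (adjusted p = 0.0241) and 0.60 higher than in Sun049T-Z (adjusted p = 0.000834), and passed against Sun224T-K in 14 of 24 other settings, with an adjusted p of up to 0.0953. CHO2, a methyltransferase of phosphatidylcholine synthesis, was lower by 1.14 in Hyb-8 relative to Sun224T-K (log2 fold change -1.14, adjusted p = 0.0479), and CYC7, a cytochrome c that low oxygen induces, by 0.88 (-0.88, adjusted p = 0.0197). The CHO2 call was lost with outlier spots kept (adjusted p = 0.0508), ACT1 scaling (0.0915) or all probes tested (0.0614), and held in 2 of the 9 fits with an array left out, those without Sun049T-Z replicate 1 or 3. The CYC7 call was lost with slide as a fixed term (adjusted p = 0.0827) and without Sun224T-K replicate 1 (0.0518) or 3 (0.0765) or Hyb-8 replicate 2 (0.0547). ACB1 and CYC7, below 2-fold, were named after their values were seen.

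Against Sun049T-Z, 37 of the 66 genes passed in Hyb-8, 20 higher and 17 lower, and 37 passed in Sun224T-K, 19 higher and 18 lower. That is 56.1% in both, where 56.0% and 58.2% of all probes passed. The acetyl-CoA list had 3 genes, of which 2 rose in Hyb-8, with ACS2, the acetyl-CoA synthetase of growth on sugar, 1.18 higher (adjusted p = 5.4e-05). Of 4 genes of activation and import, 3 rose and 1 fell in Hyb-8. FAA2, a peroxisomal acyl-CoA synthetase, was 1.36 higher in Hyb-8 (adjusted p = 6e-05) and 1.21 higher in Sun224T-K (adjusted p = 0.000117). Of 6 elongation and desaturation partners 3 rose in Hyb-8, led by the reductase NCP1 (1.14, adjusted p = 7.8e-05). Of 8 genes of mitochondrial fatty acid synthesis, 2 rose and 1 fell in Hyb-8. CEM1, its condensing enzyme, was 2.84-fold higher in Hyb-8 (adjusted p = 2.3e-05) and 3.30-fold higher in Sun224T-K (adjusted p = 9.8e-06). Among the 8 regulators, 2 rose and 1 fell in Hyb-8 and 3 rose in Sun224T-K, none by 2-fold, and SPT23 was among those that did not pass.

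In the sphingolipid and glycerolipid lists more genes passed as lower than as higher relative to Sun049T-Z. Of all probes tested, 28.7% rose and 27.3% fell in Hyb-8, and 29.1% rose and 29.1% fell in Sun224T-K. The glycerolipid counts in Hyb-8 lay near these shares. Of 10 sphingolipid genes, 2 rose and 5 fell in Hyb-8 as in Sun224T-K. SUR2, which hydroxylates sphingoid bases, was lower by 2.28 in Hyb-8 (log2 fold change -2.28, adjusted p = 2.1e-06) and by 1.89 in Sun224T-K (-1.89, adjusted p = 6.1e-06). LAC1, a ceramide synthase that joins very long chains to these bases, was lower by 1.01 in Hyb-8 (-1.01, adjusted p = 0.000194) and by 1.06 in Sun224T-K (-1.06, adjusted p = 0.000143). Of 10 glycerolipid genes, 3 rose and 4 fell in Hyb-8, and 3 rose and 6 fell in Sun224T-K. The acyltransferases SCT1 (-1.33, adjusted p = 3.9e-05) and GPT2 (-1.08, adjusted p = 5.0e-05) were lower in Hyb-8, and so were they in Sun224T-K (-0.94 each, adjusted p = 0.000292 and 0.000108), whereas PAH1, the phosphatidate phosphatase, was 1.60 higher in Hyb-8 (adjusted p = 0.000646) and 1.16 higher in Sun224T-K (adjusted p = 0.00385). Of 9 phospholipid genes, 1 rose and 1 fell in Hyb-8, and the gene that fell was INO1, the inositol phosphate synthase (-1.08, adjusted p = 0.0226). Its levels were 0.25, -0.42 and 0.28 in Hyb-8 and 0.25, 1.57 and 1.53 in Sun049T-Z, and the call was lost without Hyb-8 replicate 2 (-0.85, adjusted p = 0.0883) or Sun049T-Z replicate 2 (-0.86, 0.0795) or 3 (-0.87, 0.0744).

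OLE1 is also known to respond to low oxygen, as the desaturase itself uses oxygen. Of the 8 genes of the low-oxygen list, 2 rose and 4 fell in Hyb-8 against Sun049T-Z. In Sun224T-K against Sun049T-Z, 2 rose and 5 fell. The 2 that rose were ANB1 and ROX1 in both comparisons. ROX1 encodes a repressor, so its rise does not count as a low-oxygen gene rising. ANB1, a translation factor of low-oxygen cells, was 4.29 higher in Hyb-8 (adjusted p = 2.9e-06) and 4.28 higher in Sun224T-K (adjusted p = 2.9e-06), though its near-identical copy HYP2 may add to the signal of the probe. ROX1, a repressor of low-oxygen genes, was 1.74 higher in Hyb-8 (adjusted p = 0.000132) and 1.71 higher in Sun224T-K (adjusted p = 0.000141). COX5B, the low-oxygen form of a cytochrome oxidase subunit, was lower in Hyb-8 (-2.42, adjusted p = 1.1e-06) and in Sun224T-K (-2.09, adjusted p = 2.3e-06). CYC7 was lower in Hyb-8 (-1.99, adjusted p = 1.2e-05) and in Sun224T-K (-1.11, adjusted p = 0.000384). The heme enzyme HEM13 was also lower in Hyb-8 (-1.77, adjusted p = 6.3e-05) and in Sun224T-K (-1.21, adjusted p = 0.000618). TIR1, a cell wall mannoprotein, was lower in Sun224T-K (-1.69, adjusted p = 0.00574) and at -0.93 in Hyb-8, which did not pass (adjusted p = 0.0759). Against the mid-parent value, FAA3 (1.01), PAH1 (1.02) and ANB1 (2.15) were higher by 2-fold or more in Hyb-8, and CYC7 (-1.44), COX5B (-1.38), HEM13 (-1.17) and SUR2 (-1.34) lower.

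**Figure D5:**
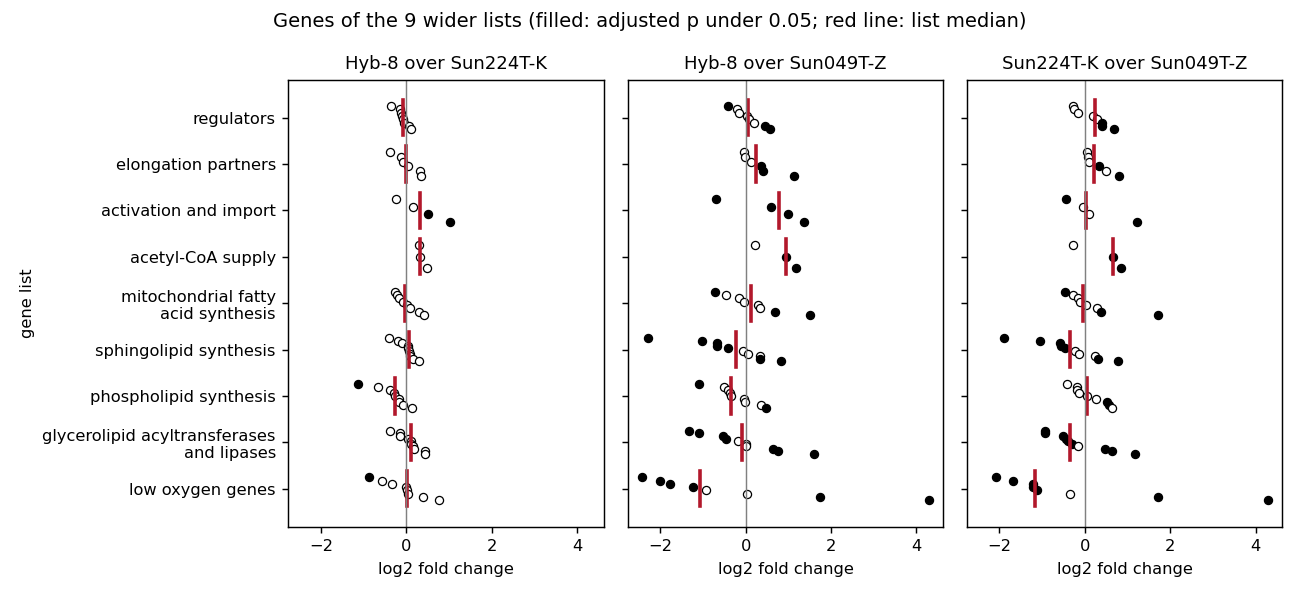
Log2 fold change (x axis) of each gene of the 9 lists around fatty acid synthesis (y axis) in the 3 comparisons of strains, filled where the adjusted p was under 0.05, with a red line at the median of each list. Hyb-8 over Sun224T-K has 4 filled points, and both comparisons with Sun049T-Z have 37, with the low-oxygen list spread most widely.

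The 5 probes whose levels followed OLE1 most closely over the 9 arrays were HOR7 (r = 0.983), DDR2 (r = 0.978), SPS100 (r = 0.977), PDR10 (r = 0.968) and FAA3 (r = 0.967). These are Pearson correlations over 9 arrays of 3 strains, given as a description, and the points of a strain are replicates of each other. HOR7 and DDR2 are known as stress-induced genes, SPS100 as a gene of spore wall maturation and PDR10 as a transporter gene. SPS100 averaged 3.92 ± 0.38 in Hyb-8, 1.90 ± 0.59 in Sun224T-K and 1.96 ± 0.08 in Sun049T-Z (SD, n = 3 each). PDR10 averaged 3.15 ± 0.0079 in Hyb-8, 2.46 ± 0.29 in Sun224T-K and 2.41 ± 0.0043 in Sun049T-Z. Like OLE1, both had their highest mean in Hyb-8 and their widest spread in Sun224T-K. As both were chosen by their correlation with OLE1 over these same arrays, this likeness is no separate observation. MGA2 correlated with OLE1 at r = 0.637 and with FAS2 at r = 0.889 over the same arrays, with FAA4 at 0.815 and with FAA1 at -0.878. These values take in the differences between strains. Within Sun224T-K and Sun049T-Z, MGA2 and OLE1 deviated from their strain means in opposite directions on every array. Within Hyb-8 they deviated in the same direction.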

How the data were processed

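The scanner files that the authors deposited came from Agilent Feature Extraction 10.1.1.1 per the labels, and hold background-subtracted intensity on a linear scale. A further deposited table of log2 values, which matched a shift to the 75th percentile with each probe centred on its median, served as an alternative. Here controls and marked outlier spots were dropped, the log2 intensities were shifted by the 75th percentile of each array, and the mean was taken over the 7 spots per probe. Testing took the probes that all 3 arrays of 1 strain or more showed well above background (5947 of 6256). Tests used limma 3.58.1 in R 4.3.3 (lmFit, eBayes) with strain as the only term, and were checked on simulated data. Signal over background and 3 arrays per strain limit the precision.

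The members, lists and tests were chosen with earlier results of these data known. Named genes were all members, SPT23, PHO13, ACT1, the 5 probes most correlated with OLE1 and, of each list, up to 4 genes past 2-fold. Names of 5756 probes came from a gene table of assembly R64, and 500 probes without a match were left with their array names. The files name no genome build, and chromosomes come from systematic names. Alternatives concerned background, scaling, filter, spots, blocks and arrays left out.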

Additional observations from a re-analysis of the deposited data

How the results depend on the processing

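The number of members that passed in Hyb-8 against Sun224T-K (1 as reported) was 0 with a normexp background, quantile normalization, each pair of strains fitted alone, the replicate number as a block or slide as a fixed term. It was 2 with scaling to ACT1, with only probes that all 9 arrays measured well above background, or with the slide as a random block, and 0 to 4 when each array was left out. Of the 5947 probes tested, 326 passed there as reported, 160 with normexp, 319 with quantile normalization and 265 with each pair fitted alone. The replicate block gave 150, slide as a fixed term 151, ACT1 scaling 362 and slide as a random block 374. Probes well above background on all 9 arrays gave 361 of 5687, and leaving out an array gave 76 to 459. Of the 66 list genes, 4 passed there as reported, 2 with normexp or the replicate block, 1 with slide as a fixed term and 0 to 6 with an array left out. At a fold change of at least 1.5 in place of 2, the counts of members were 1, 5, 3 and 4 for Hyb-8 over Sun224T-K, Hyb-8 over Sun049T-Z, Sun224T-K over Sun049T-Z and Hyb-8 over the mid-parent value. The share of all probes at 1.5-fold is not given here, so these counts say nothing particular to the members. The 2-fold count of members was 0 with ACT1 scaling and 1 to 2 with an array left out between the parental strains, and against the mid-parent value it was 0 with slide as a fixed term and 0 to 1 with an array left out. Over all probes the first 2 were 1405 and 1097 to 1297, in place of 1194. The last 2 were 299 and 298 to 323, in place of 317. The cause of these moves was not tested.

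Replicate numbers were not borne out as pairs, as deviations of same-numbered arrays correlated at -0.246 to 0.151. With the replicate block, which cannot move a fold change in this balanced design, the OLE1 call over Sun224T-K (0.71) was lost (adjusted p = 0.0762), and 150 probes passed there in place of 326. Slides 1 and 3 each held 1 array, which the fixed slide block takes out of the comparisons.

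Added after the data were seen, the median of the spots gave 2 members in Hyb-8 over Sun224T-K. Array quality weights gave 7 members there and 21 list genes, 8 members in Sun224T-K over Sun049T-Z, and 8 members and 45 list genes against the mid-parent value, while of the 5947 probes tested 1922, 4453 and 3455 passed in these 3 comparisons.

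Values that changed sign had not passed as reported. For Hyb-8 over Sun049T-Z, ACC1 was -0.023 with normexp, -0.018 with quantile normalization, -0.052 with the median shift, -0.153 with ACT1 scaling, -0.024 in the table of the authors, and -0.059 to 0.093 with an array left out. ELO3 was -0.029 with quantile normalization, -0.026 with the median shift, -0.128 with ACT1 scaling, -0.018 with the median of the spots, and -0.034 to 0.078 with an array left out. OLE1 in Sun224T-K over Sun049T-Z was 0.058 with normexp, 0.043 with quality weights and -0.154 to 0.117 with an array left out. FAA3 in Sun224T-K over Sun049T-Z was 0.294 with quality weights and passed there (adjusted p = 0.0301). FAA1 in Hyb-8 over Sun224T-K was 0.016 with ACT1 scaling. ELO2 over the mid-parent value was 0.0077 with the median of the spots and -0.084 to 0.058 with an array left out.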

Other observations

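Because FAS1 and FAS2 products join in one complex, the log2 ratio of their probes within an array was compared between strains, with the median of the spots. Hyb-8 had a ratio 0.29 higher than Sun224T-K, Hyb-8 0.50 lower than Sun049T-Z (difference -0.50), and Sun224T-K 0.79 lower than Sun049T-Z (difference -0.79). The arrays did not overlap in any of these comparisons (two-sided exact permutation p = 0.1 for each, the smallest that 3 arrays against 3 can give, adjusted p = 0.12 over 12 ratios compared). With the mean of the spots, which takes in the dim FAS1 spots of Sun049T-Z replicate 1, the comparisons with Sun049T-Z overlapped (differences 0.33 and 0.03). For FAA4 over FAA1 the ratio of Hyb-8 exceeded that of Sun224T-K by 0.60 and that of Sun049T-Z by 1.18 with the median of the spots, without overlap (exact permutation p = 0.1 each, adjusted p = 0.12). These pairs were chosen after the values of their genes were seen. OLE1 over MGA2 and ELO2 over ELO3 also had no overlap against Sun049T-Z, but overlapped between Hyb-8 and Sun224T-K. Of all single probes, 30.4% had no overlap in Hyb-8 against Sun224T-K. The share was 65.6% in Hyb-8 against Sun049T-Z and 66.2% between the parental strains. Absence of overlap is thus nothing particular to these pairs, and a test with a smallest p of 0.1 could not pass.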
